A study of Caenorhabditis elegans with 2 samples.

Results

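The regions described are autosomal distal intergenic binding peaks of DAF-16, a FOXO factor of the nematode Caenorhabditis elegans. They were taken from the list of peaks that passed the authors' threshold on the irreproducible discovery rate (IDR), a measure of how well peak ranks repeat between replicates. A peak was kept when its summit, the point of highest enrichment, lay on 1 of the 5 autosomes and outside all protein-coding genes. It also had to lie outside the 1000 bp upstream of every protein-coding gene's most upstream 5' end, and more than 1000 bp from any tRNA, snoRNA or snRNA gene. The rule was met by 425 peaks, or 23.5% of the 1808 autosomal IDR peaks (Wilson 95% interval 21.6 to 25.5), out of 2563 IDR peaks in all. They are called distal peaks here.

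Chromatin was precipitated with an antibody against GFP from whole L4 hermaphrodites, 54 hours after starved, synchronised L1 larvae were released. All animals were of strain ZM7247, which carries the daf-16 deletion allele mu86, the reduced-function daf-2 allele e1370 and the insertion hpSi4 on chromosome II, in which the myo-3 promoter drives GFP::daf-16a. This genotype puts tagged DAF-16a in the cells where the myo-3 promoter is active, which include body wall muscle. Insulin signalling is reduced in these animals, and their own daf-16 carries a deletion. The labels also mention a C-terminal GFP-FLAG fusion, a different order of the parts. The 2 biological replicates form 1 group, so the comparisons are between classes of peaks and not between conditions, and p-values over peaks do not measure variation between cultures.

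DAF-16 is kept out of the nucleus by the insulin receptor DAF-2 through the kinases AKT-1 and AKT-2, and enters it when insulin signalling is low. It binds the DAF-16 binding element (DBE), a forkhead site, and acts on genes of stress resistance, metabolism and lifespan. In the compact C. elegans genome most known regulatory elements lie just upstream of genes, and distal intergenic regions include enhancers, unannotated starts of transcripts and the spacers after gene ends.

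Sequences at 13 summits show what the distal peaks hold. Each line gives the nearest protein-coding gene, the ce11 (WBcel235) position and 101 bases of the plus strand around the summit, from the RefSeq assembly. Capitals mark the DBE (TGTTTAC), the GA repeat GAGAGA, the muscle E-box CAGCTG and CTGCGTC, called the 7-base element below, on either strand. The first are the strongest distal peaks of the list. The summits near myo-3 and cmd-1 show none of the marked sequences, and that near dpy-19 shows all of them.
myo-3, V:12235636-12235736: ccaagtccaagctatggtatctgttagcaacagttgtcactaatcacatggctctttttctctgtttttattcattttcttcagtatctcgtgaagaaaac
dpy-19, III:8658538-8658638: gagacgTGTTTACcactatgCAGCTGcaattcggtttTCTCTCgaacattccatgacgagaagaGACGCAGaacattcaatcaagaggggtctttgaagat
cmd-1, V:1151460-1151560: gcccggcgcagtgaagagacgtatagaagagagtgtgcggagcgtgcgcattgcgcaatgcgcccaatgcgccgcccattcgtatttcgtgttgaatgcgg

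The next are among the strongest other distal peaks with a DBE within 50 bp of the summit. Near T27E4.1 and lin-39 the DBE stands with an E-box or GA repeats, and near E01G4.3 it is the only marked sequence.
T27E4.1, V:9094395-9094495: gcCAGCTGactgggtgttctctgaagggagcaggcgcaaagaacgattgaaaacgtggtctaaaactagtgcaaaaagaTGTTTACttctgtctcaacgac
lin-39, III:7545436-7545536: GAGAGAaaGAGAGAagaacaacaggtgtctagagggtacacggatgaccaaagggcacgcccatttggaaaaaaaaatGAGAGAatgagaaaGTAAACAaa
E01G4.3, II:13470805-13470905: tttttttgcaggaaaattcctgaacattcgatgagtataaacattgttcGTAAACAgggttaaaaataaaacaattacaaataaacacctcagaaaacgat

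Strong peaks with a GA repeat and no DBE there follow. The repeat is a single copy near xbx-5 and ttr-17, and near Y17G7B.18 it runs into the 7-base element.
xbx-5, III:3801555-3801655: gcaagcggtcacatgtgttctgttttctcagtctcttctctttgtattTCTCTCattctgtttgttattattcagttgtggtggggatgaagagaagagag
Y17G7B.18, II:12102548-12102648: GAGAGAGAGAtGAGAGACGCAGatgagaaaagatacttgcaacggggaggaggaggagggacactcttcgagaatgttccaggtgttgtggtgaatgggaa
ttr-17, IV:11068456-11068556: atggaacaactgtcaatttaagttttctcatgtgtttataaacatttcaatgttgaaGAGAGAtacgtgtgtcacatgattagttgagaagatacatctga

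The last lie near muscle and insulin pathway genes named below, actin act-1, titin ttn-1 and the DAF-16 kinase gene akt-1. In the first of the akt-1 windows the DBE counted below lies outside the printed bases, since motifs were searched within 100 bp.
act-1, V:11082541-11082641: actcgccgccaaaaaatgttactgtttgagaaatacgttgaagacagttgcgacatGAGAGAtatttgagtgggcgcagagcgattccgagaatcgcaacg
ttn-1, V:6204201-6204301: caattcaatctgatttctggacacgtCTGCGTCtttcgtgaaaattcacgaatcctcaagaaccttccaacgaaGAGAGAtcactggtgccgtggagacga
akt-1, V:10246533-10246633: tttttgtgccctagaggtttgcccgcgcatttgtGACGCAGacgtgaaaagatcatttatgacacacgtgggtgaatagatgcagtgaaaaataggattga
akt-1, V:10247110-10247210: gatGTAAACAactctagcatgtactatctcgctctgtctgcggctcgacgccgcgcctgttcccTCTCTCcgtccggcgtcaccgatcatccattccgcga

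The signal of the authors' caller, whose scaling is not given in the sources used here, ranged from 60.5 to 865 over the 425 distal peaks, with a median of 92 and quartiles of 72.3 and 127. In the 593 autosomal IDR peaks whose summits lay in intergenic promoters (within 1000 bp upstream of a 5' end, under the same small RNA distance), it ranged from 60.8 to 677, with a median of 95.1 and quartiles of 74.2 and 130. The ranges overlapped almost wholly. Both classes passed the same IDR threshold, which set nearly the same lower limit for each. This and the later comparisons of signal cover only peaks that passed. They do not weigh distal against promoter binding as a whole. A signal at or above the autosomal IDR median of 93.3 was found in 201 distal peaks (47.3%) and in 306 promoter peaks (51.6%). The log2 odds ratio was -0.25 ± 0.18 (SE), and the difference did not pass the test (two-sided Fisher's exact test with Benjamini-Hochberg adjustment over 21 tests, adjusted p = 0.344). Of the 100 strongest IDR peaks, 49 were autosomal and 9 were distal.

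The IDR list held 10.6% of all pooled candidates that met the same location rule (425 of 4004), 17.1% of promoter candidates (593 of 3468) and 7.46% of autosomal candidates (1808 of 24234). These shares belong to the rule that chose the peaks, so nothing is read from them. The other 3579 candidates of the same location, more than 100 bp from any IDR summit, are called distal candidates. Their signals ran from 9.22 to 60, so that they are weaker by construction. The list ended between exc-15, tag-68 and M117.1 (60.5 each) and the distal candidates near prdh-1 and iff-1 (60 each) and tag-353 (59.9). On the distance side, the 26 distal peaks within 100 bp beyond the upstream limit of 1000 bp had a median signal of 84.6 (60.9 to 276), and the 18 promoter peaks within 100 bp inside it had a median of 104 (65.4 to 309).

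**Figure D1:**
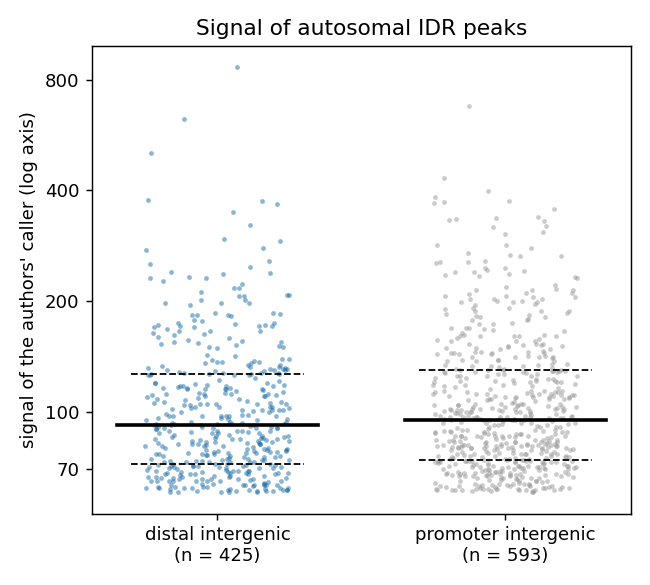
Signal of the authors' caller (log axis) of each autosomal IDR peak, for 425 distal intergenic and 593 promoter intergenic peaks. Points are peaks, solid lines medians (92 and 95.1) and dashed lines quartiles. The distributions overlap above the lower limit that the IDR threshold set for both, and the highest value, 865, is the distal peak near myo-3.

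The strongest distal peak lay 1343 bp upstream of myo-3, which encodes a body wall muscle myosin heavy chain. Its signal was 865 in the pooled list, 417 in replicate 1 and 445 in replicate 2. Another IDR peak, with a signal of 169, lay 500 bp upstream of the same gene, and one with 81 lay 735 bp inside it. Because the transgene carries the myo-3 promoter, reads of the transgene and of the gene's own promoter cannot be told apart in these lists.

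The distal peak next in strength lay 1284 bp downstream of dpy-19, a C-mannosyltransferase gene, with signals of 293 and 333 in replicates 1 and 2 and 627 pooled. The summit 4761 bp upstream of cmd-1, the calmodulin gene, had signals of 230 and 280 and a pooled value of 505. It lay inside the long intergenic noncoding RNA gene linc-128. Downstream of ifo-1, an organiser of intestinal intermediate filaments, a summit at 407 bp had 197 and 178 and a pooled signal of 378, inside the noncoding RNA gene F42C5.16. Replicate 2 had the higher value in 3 of these 4 peaks, and replicate 1 near ifo-1.

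The next of the 25 strongest distal peaks follow by position. Summits downstream of a 3' end lay near xbx-5 (pooled signal 375), act-1 (291), aars-2, an alanyl-tRNA synthetase gene (257), and tat-3, a phospholipid-transporting ATPase gene (236). Summits far upstream of a 5' end lay near sup-26, an RNA-binding protein gene (350), cex-2, a calcium-binding protein gene whose peak lay in linc-110 (322), and the transthyretin-related genes ttr-17 (295) and ttr-41 (276). Others lay upstream of mtrr-1, methionine synthase reductase (240), frm-1, a FERM domain gene (232), the calmodulin-related cal-1 (231), the forkhead factor gene fkh-7 (226) and hint-3, a histidine triad nucleotide-binding protein gene (217). The rest of the 25 were nearest to Y17G7B.18 (368), T27E4.1 (279), Y1A5A.1 (253), F40A3.7 (248), C26E1.1 (239), T23E1.1 (231), T04C4.3 (222) and ZK370.4 (217). The strongest distal peaks thus lay on both sides of genes and near genes of unlike kinds.

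Body wall muscle genes were the nearest genes of 12 distal peaks, at 9 genes. This was 2.82% of distal peaks (Wilson 95% interval 1.62 to 4.87), beside 39 distal candidates, or 1.09% (0.798 to 1.49). No test was made of gene lists. Promoter IDR peaks also lay near genes of this list, among them myo-3, act-1, unc-54, unc-15 and deb-1, so such peaks are not particular to the distal class. Beside myo-3, the actin gene act-1 had summits 176 and 377 bp downstream of its 3' end. The first had 133 and 163 in replicates 1 and 2 and a pooled signal of 291, and the second, with a DBE in its window, had 99 and 80.8 and a pooled signal of 170. The 2 act-1 peaks lay so close that they share sequence and are not independent. The titin gene ttn-1 had a summit 1619 bp upstream, inside the noncoding RNA gene W06H8.10, with 103 and 114 and a pooled signal of 212.

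The muscle myosin gene unc-54 had a distal peak 1633 bp upstream with 56.6 and 57.6 in replicates 1 and 2 and a pooled signal of 111.6. The other muscle list genes were unc-70, beta-spectrin (pooled signal 111.6), deb-1, vinculin (94), unc-87, a thin filament protein (82.2 and 81.1), unc-60, cofilin (77.2 and 66.5), and mlc-3, a myosin light chain (68.7). The mlc-3 peak was uneven, with 13.8 in replicate 1 and 55.8 in replicate 2. The median signal of the 12 was 103, beside 92 over all distal peaks. The 12 include the myo-3 peak (865), which cannot be told apart from the transgene. They also count more than 1 peak each at act-1, unc-87 and unc-60. No higher signal near muscle genes is read from this median.

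Among genes of the insulin pathway, akt-1 had distal peaks 2322 and 1745 bp upstream, each with a DBE within 100 bp of the summit. The farther had 49.2 and 47.1 in replicates 1 and 2 and a pooled signal of 97.7, and the nearer, inside the noncoding RNA gene C12D8.25, had 42.6 and 35.8 and a pooled signal of 78.9. The daf-16 gene had 1 distal peak, 2279 bp upstream, at 38.4 and 27.1 and a pooled signal of 67, below the lower quartile of the distal peaks, 72.3. No distal peak was nearest to daf-2, although an IDR peak of another class lay within 5 kb of it. None was nearest to unc-119, a neuronal gene, where the strongest candidate within 5 kb had a signal of 17.9. The gene aakg-1, an AMP-activated kinase gamma subunit, had a distal peak with a DBE 8319 bp upstream (59.9 and 83.7, pooled 137). The akt-1 and aakg-1 peaks were singled out after their values were seen.

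Other gene families were near few distal peaks. Nuclear hormone receptor genes were nearest to 5 (1.18%, beside 1.93% of distal candidates): 3 upstream of nhr-88 (104, 88.7 and 67.8), and 1 each near nhr-34 (90.2) and nhr-76 (82). Chemosensory receptor genes were nearest to 7 (1.65%, beside 1.76%), led by srx-122 (197), srx-14 (155) and sri-11 (95.1). C-type lectin genes were nearest to 4 (0.941%, beside 0.475%), led by clec-182 (126 and 61.8) and clec-196 (76.7), and F-box, MATH or BTB genes to 4 (0.941%, beside 0.391%), led by bath-44 (166), fbxa-65 (159) and fbxa-55 (77). Homeobox genes were nearest to 2 (0.471%, beside 0.531%), with ceh-79 at 166 and ceh-13 at 67.8, and collagens to 2 (0.471%, beside 0.559%), with col-55 at 85.5 and col-83 at 66.6. Neuropeptide genes were nearest to 1 (nlp-40, 206; 0.235%, beside 0.14%) and ribosomal protein genes to 1 (rps-15, 62; 0.235%, beside 0.447%). Insulin-like peptide and histone genes were nearest to 0, which allows a share of up to 0.896% at the upper Wilson bound; the shares of distal candidates, 0.14% and 0.0279%, lie below it.

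The 425 distal peaks had 362 distinct nearest genes, of which 307 had 1 distal peak, 48 had 2 and 7 had 3 or more. K08F11.1 had 4, and mak-1, T28C12.6, fmil-1, Y67D8B.1, let-756, a fibroblast growth factor gene, and nhr-88 had 3 each. Upstream of let-756 the summits at 4646, 3220 and 1886 bp had pooled signals of 115, 72 and 85.9. The Hox gene lin-39, which patterns the middle body, had 2 distal peaks in the gap of 19027 bp between it and the Hox gene ceh-13. The farther, 8854 bp upstream, had 95.6 and 106 in replicates 1 and 2 and a pooled signal of 198; the nearer, at 7816 bp in linc-57, had 63 and 67.7 and a pooled signal of 128. The ceh-13 peak lay in the same gap, so 3 distal peaks fell in it.

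The nearest gene end was a 3' end for 220 distal peaks (51.8%, called downstream) and a 5' end for 205 (48.2%, called far upstream). Of the distal candidates, 1861 (52%) were downstream, and so were 51.6% of all bases that met the location rule. Distal peaks and distal candidates did not differ in this share by the test (odds ratio on the log2 scale -0.01 ± 0.15 SE, Fisher's exact test, two-sided, adjusted p = 0.959). The position relative to the nearest gene end was therefore split much as the sequence itself is.

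Downstream summits lay 16 to 10023 bp from the 3' end, with a median of 852 bp and quartiles of 294 and 1993 bp; the median of downstream candidates was 642 bp. Within 200 bp of the 3' end were 38 of the 220 (17.3%, beside 20.2% of candidates), and more than 5000 bp away were 11. The nearest was the peak 16 bp past aars-2. Far upstream summits lay 1002 to 10764 bp from the 5' end, with a median of 2052 bp, beside 2335 bp for far upstream candidates; the rule fixes the lower limit. Between 1000 and 2000 bp were 99 of the 205 (48.3%, beside 41.7% of candidates), and more than 5000 bp away were 26. The farthest was near asp-13, an aspartyl protease family gene, with a pooled signal of 127 and a DBE. Measured to the nearest 5' end whatever the nearest gene end was, the median distance was 2688 bp, and 26 distal peaks lay over 10000 bp from any 5' end.

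**Figure D2:**
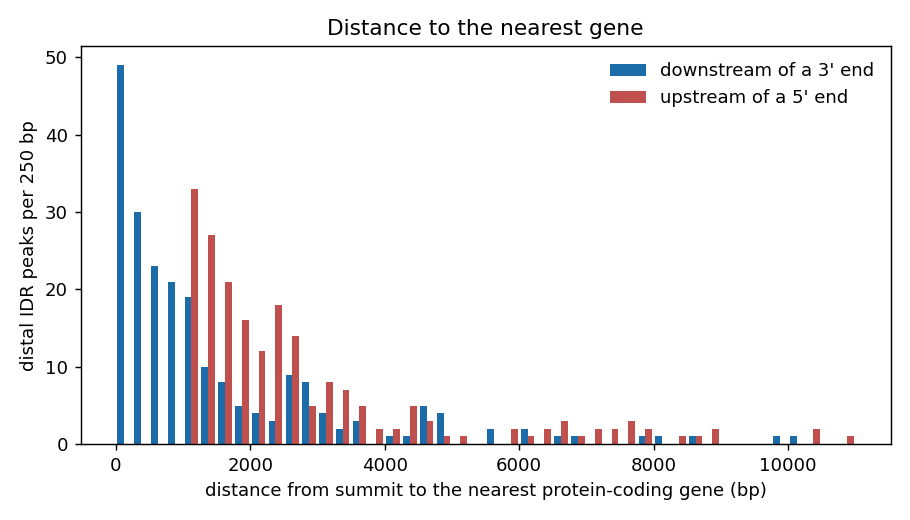
Number of distal IDR peaks by distance from the summit to the nearest protein-coding gene (bp), in bins of 250 bp, for summits downstream of a 3' end (n = 220) and upstream of a 5' end (n = 205). Downstream summits are most numerous in the bin next to the 3' end (median 852 bp, beside 642 bp for downstream candidates), and upstream summits start above 1000 bp by the rule (median 2052 bp).

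Downstream and far upstream peaks overlapped in signal, with a median of 89 (quartiles 71.7 and 126) downstream and 93.3 (73.4 and 128) far upstream. The share at or above the autosomal median was 45.5% downstream and 49.3% far upstream (two-sided Fisher's exact test adjusted over 23 tests within the distal peaks, adjusted p = 0.841). GA repeats were less frequent in downstream windows, in 99 of 220 (45%), against 121 of 205 far upstream (59%), with a log2 odds ratio of -0.82 ± 0.28 (SE, Fisher's exact test, two-sided, adjusted p = 0.0368). This call was lost under 7 of 11 other settings, among them the peaks of replicate 1 alone (adjusted p = 0.226 in the same Fisher's exact test) and 1 summit per 500 bp (0.134). Windows covered to at least 50% by sequences of 31 bases that occur again in the genome numbered 9 downstream and 0 far upstream (Fisher's exact test, two-sided, adjusted p = 0.0368), and 4 of the 9 lay past the single gene K08F11.1. That call was lost under 7 of 9 other settings, including 1 summit per 500 bp, where 6 remained downstream (adjusted p = 0.139, two-sided Fisher's exact test).

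The gaps that held the peaks were sorted by the direction of the flanking genes. Between tandem genes, which run the same way, lay 265 distal peaks (62.4%, Wilson 95% interval 57.7 to 66.8), beside 57.5% of distal candidates and 53.6% of distal bases. Between convergent genes, which end towards each other, lay 38 (8.94%, 6.58 to 12), beside 14.7% of candidates (13.6 to 15.9) and 17.5% of bases. Divergent gaps held 122 (28.7%), beside 27.7% of candidates and 28.7% of bases. The median signals were 89 in tandem, 88.2 in convergent and 95.5 in divergent gaps. Over the peaks, the gaps that held them had a median length of 1.53 kb for convergent, 5.53 kb for tandem and 7.17 kb for divergent gaps. This order follows from the rule, which takes 1000 bp upstream of each 5' end. Short tandem and divergent gaps therefore cannot hold a distal peak, while short convergent gaps can. The convergent class thus held a smaller share of the distal peaks than of the sequence open to them; no test was made of it.

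Autosomes of C. elegans have gene-rich, conserved centres and arms with more repeats and recombination. With arms taken as the outer 25% of each autosome at either end, 146 distal peaks lay in arms (34.4%, Wilson 95% interval 30 to 39). Of the distal candidates, 1723 did (48.1%, 46.5 to 49.8), and of the distal bases 53.6%. The share was lower in distal peaks than in distal candidates (odds ratio on the log2 scale -0.83 ± 0.16 SE, Fisher's exact test, two-sided, adjusted p = 3.14e-07). Set against only the 868 distal candidates that had a summit within 100 bp in both replicates, 38.8% of which lay in arms, the difference did not pass (log2 odds ratio -0.28, Fisher's exact test, two-sided, adjusted p = 0.331). Promoter IDR peaks had 195 in arms (32.9%), and distal peaks did not differ from them by the test (odds ratio on the log2 scale 0.09 ± 0.19 SE, Fisher's exact test, two-sided, adjusted p = 0.744).

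Arms held 14.3 distal peaks per Mb of distal sequence and centres 31.5, for 22.3 over all 19.1 Mb. The share in arms was below that of the distal candidates on each autosome. On chromosome I it was 40.8% against 50.6% of candidates, on II 28.6% against 44%, on III 27.3% against 46.3%, on IV 42.7% against 57%, and on V 32.1% against 41.7%. By density, chromosomes III (27.9 per distal Mb) and I (27.6) led, II (21.8) and V (20.8) followed, and IV had 18. With each autosome cut into 10 equal bins from its left end, bin 5 held 16.2% of the distal peaks, beside 10.4% of candidates and 8.99% of bases, and bin 9 held 4.71%, beside 7.82% and 11.6%.

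**Figure D3:**
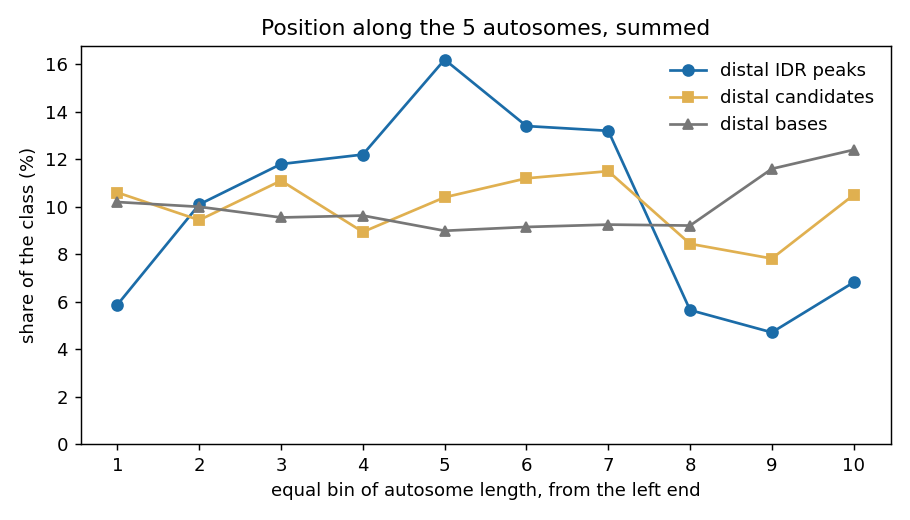
Share (%) of distal IDR peaks, distal candidates and distal bases in each of 10 equal bins of autosome length, summed over the 5 autosomes. Distal peaks sit above the bases in bins 2 to 7 and below them in bins 1, 8, 9 and 10, with 16.2% in bin 5 and 4.71% in bin 9.

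Arm and centre peaks overlapped in signal, with a median of 88 in arms (quartiles 71.5 and 131) and 93.3 in centres (72.9 and 127). The share at or above the autosomal median was 42.5% in arms and 49.8% in centres (Fisher's exact test, two-sided, adjusted p = 0.393). The 7-base element was in 40 of 146 arm windows (27.4%, Wilson 95% interval 20.8 to 35.1) and in 37 of 279 centre windows (13.3%, 9.78 to 17.7). This difference passed (odds ratio on the log2 scale 1.30 ± 0.37 SE, Fisher's exact test, two-sided, adjusted p = 0.0118) and did so under 11 of 12 other settings. The exception was an upstream limit of 2000 bp, with 275 peaks (log2 odds ratio 0.94, Fisher's exact test, two-sided, adjusted p = 0.335). Whether arm sequence as such holds more of the element, in candidates or in windows without peaks, was not tested. The DBE was in 9.59% of arm windows and 9.68% of centre windows, which did not differ by the test (Fisher's exact test, two-sided, adjusted p = 1). Windows covered to at least 50% by repeated 31-base sequence were 2.05% in arms and 2.15% in centres (Fisher's exact test, two-sided, adjusted p = 1). Windows with any such sequence were 15.8% in arms (23 of 146) and 3.58% in centres (10 of 279), which passed (log2 odds ratio 2.33, Fisher's exact test, two-sided, adjusted p = 6.21e-04). The nearest gene was 1622 bp away at the median in arms and 1456 bp in centres.

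The DBE lay within 100 bp of the summit, on either strand, in 41 of 425 distal peaks (9.65%, Wilson 95% interval 7.19 to 12.8). Distal candidates had it in 98 of 3579 (2.74%, 2.25 to 3.33), and 2.55% of 91466 windows of the same length tiled over distal sequence held it. The difference from candidates passed (odds ratio on the log2 scale 1.92 ± 0.28 SE, Fisher's exact test, two-sided, adjusted p = 2.22e-09) and under all 12 other settings. It was smaller against the 868 distal candidates matched in both replicates, of which 4.03% held a DBE (log2 odds ratio 1.35, Fisher's exact test, two-sided, adjusted p = 9.72e-04). Promoter IDR peaks had it in 55 of 593 (9.27%), which did not differ from distal peaks by the test (odds ratio on the log2 scale 0.06 ± 0.31 SE, Fisher's exact test, two-sided, adjusted p = 0.959). That DBEs are more frequent in the IDR list as a whole was known when these peaks were chosen. The 44 copies lay at a median of 37 bp from the summit, 26 of them within 50 bp. The median signal was 112.4 in the 41 peaks with a DBE and 90.7 in the others. The strongest with a DBE, beside those printed above, lay near F40A3.7 (248, 8770 bp upstream), frm-1 (232), hint-3 (217) and fmil-1 (184).

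GA repeats were the commonest of the 7 motifs searched, in 220 distal peaks (51.8%, Wilson 95% interval 47 to 56.5), and 117 of these held 2 or more copies. Promoter IDR peaks had them in 243 of 593 (41%, 37.1 to 45), distal candidates in 834 of 3579 (23.3%, 21.9 to 24.7), and tiled windows in 10.5%. Distal peaks were higher than promoter peaks (odds ratio on the log2 scale 0.63 ± 0.18 SE, Fisher's exact test, two-sided, adjusted p = 0.00251) and than candidates (1.82 ± 0.15 SE, Fisher's exact test, two-sided, adjusted p = 4.48e-31). Both calls passed under every setting tried, but the excess over candidates shrank against the 868 matched in both replicates, of which 35.7% held a GA repeat (log2 odds ratio 0.95, Fisher's exact test, two-sided, adjusted p = 8.68e-07). As the candidates are the peaks that did not pass the IDR threshold, the excess over them is between passed and failed peaks. Promoter IDR peaks (41%) also stood above the candidates (23.3%), so that excess is not particular to distal peaks. By position, the share was 45% in downstream peaks (38.6 to 51.6) and 59% in far upstream peaks (52.2 to 65.5). Neither group was tested apart against promoter peaks. The tiled windows cover distal sequence only, so the frequency of GA repeats in promoter sequence as such is not given. A DBE and a GA repeat stood together in 23 distal peaks, and 187 (44%) had neither. The median signal was 92.8 with a GA repeat and 89.7 without.

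The 7-base element was in 77 distal peaks (18.1%), against 94 promoter peaks (15.9%; Fisher's exact test, two-sided, adjusted p = 0.526) and 209 candidates (5.84%; odds ratio on the log2 scale 1.84 ± 0.21 SE, Fisher's exact test, two-sided, adjusted p = 4.97e-15), with 1.68% of tiled windows. The E-box CAGCTG, a site form bound by the muscle factor HLH-1, was in 48 distal peaks (11.3%), against 62 promoter peaks (10.5%; Fisher's exact test, two-sided, adjusted p = 0.755) and 177 candidates (4.95%; odds ratio on the log2 scale 1.29 ± 0.25 SE, Fisher's exact test, two-sided, adjusted p = 4.49e-06), with 2.94% of tiled windows. Against the 868 candidates matched in both replicates the differences were smaller. The 7-base element was in 10.4% of these (log2 odds ratio 0.94, Fisher's exact test, two-sided, adjusted p = 9.72e-04) and the E-box in 7.03% (log2 odds ratio 0.75, Fisher's exact test, two-sided, adjusted p = 0.0447). Neither motif differed from promoter peaks by the test, so the excess over the candidates, which failed the IDR threshold, is not particular to distal peaks. The median GC content of the windows was 42.3% in distal peaks, 41.3% in promoter peaks, 37.3% in candidates and 33.8% in tiled windows, and repeat-masked bases made up 20.9% of distal peak windows and 31.3% of candidate windows at the median. The part of base composition in these differences was not tested.

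For the other 3 motifs no difference passed with the upstream limit of 1000 bp and windows of 100 bp. The DAF-16 associated element CTTATCA (DAE) was in 20 distal peaks (4.71%), against 3.04% of promoter peaks and 3.46% of candidates (Fisher's exact test, two-sided, adjusted p = 0.344 for each). TGATAA, a site form of GATA factors that also overlaps the DAE read on the other strand, was in 74 (17.4%), against 13.7% of promoter peaks and 16.2% of candidates (Fisher's exact test, two-sided, adjusted p = 0.26 and 0.698). The DBE letters in reverse order, CATTTGT, which served as a sequence of the same composition, were in 27 (6.35%), against 4.38% and 4.5% (Fisher's exact test, two-sided, adjusted p = 0.344 and 0.236). With an upstream limit of 2000 bp, however, the reversed DBE passed against promoter peaks (log2 odds ratio 1.24, Fisher's exact test, two-sided, adjusted p = 0.0113) and against candidates (log2 odds ratio 1.09, Fisher's exact test, two-sided, adjusted p = 0.00863). Tiled windows held the 3 motifs at 3.23%, 17.2% and 4.76%, in the order DAE, TGATAA and reversed DBE. A match gives only the presence of the letters in the window.

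**Figure D4:**
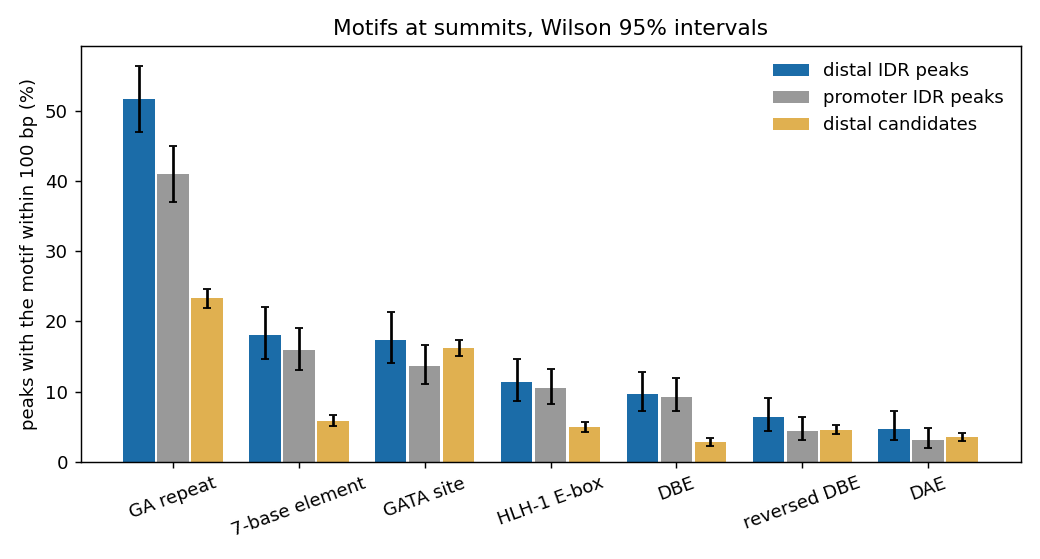
Share (%) of distal IDR peaks (n = 425), promoter IDR peaks (n = 593) and distal candidates (n = 3579) with each motif within 100 bp of the summit, with Wilson 95% intervals. Distal peaks exceed candidates for the GA repeat (51.8% against 23.3%), the 7-base element, the HLH-1 E-box and the DBE (9.65% against 2.74%), and exceed promoter peaks for the GA repeat alone among the calls.

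Summits inside genes that are not protein-coding numbered 46 (10.8%), against 358 distal candidates (10%; odds ratio on the log2 scale 0.13 ± 0.24 SE, Fisher's exact test, two-sided, adjusted p = 0.744). The kinds of gene differed in their shares, described without a test. These shares, and those near miRNA genes below, set passed peaks beside candidates that failed the IDR threshold. Promoter IDR peaks were not sorted by kind of gene, so no trait particular to distal peaks is read from them. Noncoding RNA genes of the annotation class ncRNA held 34 summits (8%, Wilson 95% interval 5.78 to 11, beside 3.35%, 2.81 to 3.99), long intergenic noncoding RNA genes 8 (1.88% beside 1.17%) and pseudogenes 4 (0.941%, 0.367 to 2.39, beside 5.2%, 4.52 to 5.97). The lincRNA peaks included those near cmd-1 and cex-2 and another in linc-110 with a DBE (pooled signal 102). The miRNA gene mir-8209 held 1 summit (128), near T22C1.8.

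Within 1000 bp of a miRNA gene lay 9 distal peaks (2.12%, beside 0.978% of candidates). Beside mir-8209, they stood near mir-231 in the lin-39 gap (198 and 128), mir-52 (168 and 71.8), mir-80 (153), mir-241, a let-7 family miRNA (105), mir-53 (98.2) and mir-51 (78.1). The mir-51, mir-52 and mir-53 genes belong to 1 miRNA family. The mir-80 peak was uneven, with 40.4 in replicate 1 and 105 in replicate 2. These genes were singled out after their values were seen.

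A summit within 100 bp was found in replicate 1 for 413 distal peaks (97.2%), in replicate 2 for 409 (96.2%) and in both for 398 (93.6%, Wilson 95% interval 90.9 to 95.6). Of the promoter IDR peaks, 575 were matched in both (97%, 95.3 to 98.1), a higher share (odds ratio on the log2 scale -1.12 ± 0.45 SE, Fisher's exact test, two-sided, adjusted p = 0.0394). Both classes passed the IDR threshold, which rests on repetition between these same replicates, so high shares belong to the rule. The comparison bears on how closely summits coincide and not on whether the peaks repeat. With a match distance of 50 bp, 72.5% of distal peaks and 82.1% of promoter peaks were matched in both, and the difference passed (log2 odds ratio -0.80, Fisher's exact test, two-sided, adjusted p = 0.00103). With 200 bp the sign reversed, at 99.8% of distal peaks and 99.7% of promoter peaks (log2 odds ratio 0.52, Fisher's exact test, two-sided, adjusted p = 1). With 1 summit per 500 bp it did not pass (log2 odds ratio -1.05, Fisher's exact test, two-sided, adjusted p = 0.071). The peak near exc-13 (73.9) had no match within 100 bp in either replicate, and the strongest peak with a single match was near mak-1 (156, matched in replicate 1 at 76.6).

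Over the 398 matched distal peaks Spearman's rho between the replicate signals was 0.63, and over 575 promoter peaks it was 0.67; the points of each share libraries and the selection on pooled signal. The median signal was 46.1 in replicate 1 and 48.8 in replicate 2, and 225 of the 398 were higher in replicate 2. The median log2 ratio of replicate 2 over replicate 1 was 0.10, and 25 peaks were past 2-fold either way. The widest ratios towards replicate 1 were near cal-1 (55.4 in replicate 1 and 8.91 in replicate 2, log2 ratio -2.64) and let-92, a protein phosphatase gene (46.1 and 9.13, -2.34). The widest towards replicate 2 were near tax-6, the calcineurin A gene (7.29 and 33.1, log2 ratio 2.18), and mlc-3 (2.02). All 4 of these peaks had pooled signals below the distal median.

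**Figure D5:**
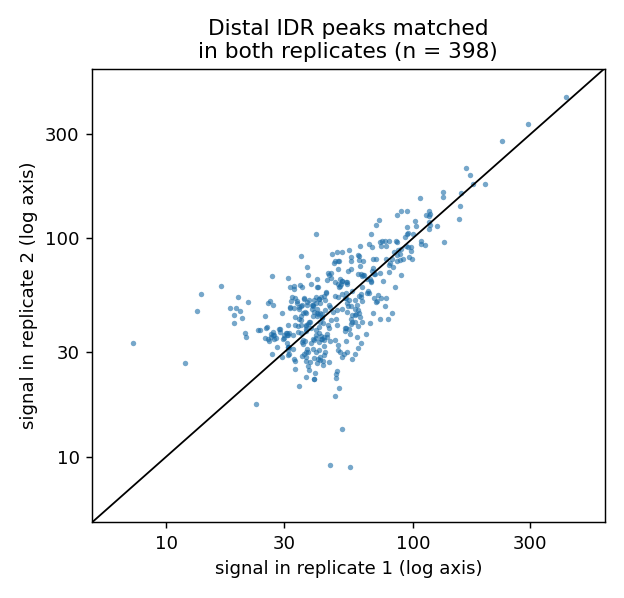
Signal in replicate 1 against replicate 2 (both log axes) for the 398 distal IDR peaks matched in both; each point is a peak and the line marks equal values. The strongest peaks lie near the line, up to 417 and 445 near myo-3, and 25 points are more than 2-fold from it.

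The distance from a distal summit to the next IDR summit had a median of 3774 bp. Another IDR summit lay within 1000 bp of 68 distal peaks (16%) and within 500 bp of 35. Such neighbours, like those at act-1, unc-60 and tax-6, are counted apart and share sequence. Of the 425, 310 had the width of 436 bp, and widths ranged from 109 to 613 bp.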

How the data were processed

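DAF-16 ChIP-seq peak lists of 2 biological replicates were analysed on build ce11; the lists on ce10 were not used. Per the labels, animals were sonicated and precipitated with an antibody against GFP. A control library appears in the deposited lists of files as an input to the peaks and was not analysed here. The sources used here do not name the aligner, the caller or their versions, nor the IDR threshold. Signal is the authors' value per peak in the deposited lists, used to describe, rank or split peaks within a list, with no SD. The deposited −log10 q-value had 1 top value in all IDR peaks and was not used. The deposited summit offset, another value of the authors' lists, gave positions. Depth is unknown, so intervals are Wilson 95% intervals of shares of peaks, which cover counting error only.

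Genes came from Ensembl release 115 (WBcel235) and sequence from the RefSeq assembly of that name; coordinates are 1-based. Candidates are peaks of the pooled list (30000). Summits of different lists were matched within 100 bp, and motifs were sought on either strand up to 100 bp from the summit. Shares were tested by Fisher's exact test, two-sided, with Benjamini-Hochberg adjustment over 21 tests, and over 23 tests within the distal peaks, at 0.05; log2 odds ratios have Woolf SEs, with 0.5 added where a cell was 0. Scripts were tested on simulated data (Python 3.11.15, numpy 2.4.6, scipy 1.17.1, pandas 2.3.3, matplotlib 3.10.9).

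Peaks, gene lists (by symbol) and most settings were chosen with earlier results of these data known, and the tests within the distal peaks were added after the files were seen. The naming rule took the nearest protein-coding gene of the 25 strongest distal peaks, up to 3 of the strongest per gene list, the 3 weakest, and myo-3, daf-16, daf-2, unc-54 and unc-119. Further genes in the text were picked with their values known. Alternatives changed the upstream limit (500 and 2000 bp), the small RNA distance, the gene set (all annotated genes), the arm limit, the motif window (50 and 200 bp), the match distance (50 and 200 bp), the repeat and signal cuts and the peaks and candidates used. They also left out each replicate, with the strongest candidates of the other in place of the IDR list.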

Additional observations from a re-analysis of the deposited data

How the results depend on the processing

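Over 17 alternative settings, 473 values were computed, of which 443 kept their side of the threshold, and their direction where they passed it. The calls of DBE, GA repeat, E-box and 7-base element against distal candidates and of GA repeat against promoter peaks kept theirs in all; the last ranged from 0.55 to 0.91 in log2 odds. No paired analysis was possible because there was 1 group. Depth is unknown, and summits close together are not independent. All adjusted p below are from two-sided Fisher's exact tests, and the causes were not tested.

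With an upstream limit of 2000 bp there were 275 distal peaks. The comparisons of downstream with far upstream then gave log2 odds of 3.66 for repeated sequence and -0.76 for GA repeats, and arms against centres gave 0.94 for the 7-base element (none passed); the reversed DBE passed against promoter peaks (1.24) and candidates (1.09). With 500 bp, repeated sequence downstream did not pass (2.55), while TGATAA downstream (0.95) and arm peaks in other genes (-1.32) did. With all annotated genes, the replicate match against promoter peaks (-0.89), repeated sequence (3.96) and GA repeats downstream (-0.64) did not pass. With IDR peaks matched in both replicates, repeated sequence (4.10) and GA repeats downstream (-0.74) did not, and without peaks of repeated sequence GA repeats did not (-0.76). With 1 summit per 500 bp, the replicate match (-1.05), repeated sequence (3.69) and GA repeats downstream (-0.69) did not.

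With a motif window of 50 bp, GA repeats downstream did not pass (-0.69), while GA repeats in arms (0.98) and TGATAA against promoter peaks (1.15) did; GA repeats in arms also passed with wider arms, the outer 33.3% at either end (0.91). With 200 bp the reversed DBE passed against candidates (0.62). Counting any repeated 31-base sequence, distal peaks exceeded promoter peaks (1.00, adjusted p = 0.0344 by Fisher's exact test), and arms against centres reversed to 2.33 and passed (adjusted p = 6.21e-04 by Fisher's exact test). With a match of 200 bp the replicate match reversed to 0.52. Against candidates matched in both replicates, the arm share did not pass (-0.28). Leaving out 1 replicate at a time gave, downstream against far upstream, 3.57 to 3.83 for repeated sequence (neither passed) and -0.89 to -0.51 for GA repeats (not passed without replicate 2), and, arms against centres, -1.60 to -1.18 for summits in other genes (passed without replicate 1).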
